A study of Homo sapiens with 2 samples.

Results

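Droplets whose leading hashtag was HTO_B carried the weakest label in a pooled, hashed single-cell RNA sequencing run of PC9 lung cancer cells. They were chosen by their hashtag UMIs (unique molecular identifiers, which count each tagged molecule once): HTO_B had to be the highest of the 8 hashtags, reach 10 UMIs or more, and be 3 or more times as high as the second. The rule gave 1457 HTO_B members among 15324 droplet barcodes, and 14011 barcodes were members of some hashtag. HTO_B members thus made up 10.4% of all members (exact binomial 95% interval 9.90% to 10.9%). The level of HTO_B in these cells is what the rule used, so it is described here without a test. There was a single library of each kind, so no value has a replicate. All intervals cover only the sampling of barcodes or UMIs within this run.

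The pool held 8 untreated populations of PC9, a line from human non-small cell lung cancer whose EGFR has an exon 19 deletion, at 8 to 10 passages. The versions were PC9-VU, PC9-MGH, which was acquired separately, and PC9-BR1, which was derived from PC9-VU by escalating doses of the EGFR inhibitor afatinib and alone carries a further EGFR mutation. The sublines DS3, DS6, DS7, DS8 and DS9 were each 1 clone from a single PC9-VU cell. All of them had a nuclear label. Each population received 1 ng of its own hashing antibody, and no label pairs a hashtag with a population, so the antibody HTO_B and the population it labelled are confounded and cannot be told apart.

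In cell hashing, antibodies against widely expressed surface proteins carry a DNA oligonucleotide that is captured and sequenced along with the RNA of the droplet. The human hashing antibodies of this series bind beta-2-microglobulin, the light chain of MHC class I, and CD298, a subunit of the sodium-potassium pump. The count of a hashtag in a droplet reflects how much antibody the cell bound, how well the droplet's oligonucleotides were captured, and free antibody from the suspension, which adds a low count of each hashtag to each droplet.

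The tags differ by a stretch of 15 bases without a position in the genome. HTO_B is printed with the hashtag nearest to it in sequence (HTO_F), the next weakest in level (HTO_H) and the brightest (HTO_G), because the levels of these are compared below. Capitals mark the bases that match HTO_B at the same position.
HTO_B: tgatggcctattggg
HTO_F: gGtTGcCagATgtca
HTO_H: ctcctctgcAaTtac
HTO_G: TGtctttCctgccaG
HTO_B differed from HTO_F at 9 positions and from each of the other 6 hashtags at 10 to 13. It held 8 G or C bases, within the 6 to 8 of the others.

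The files gave 22104678 hashtag UMIs and 81061884 hashtag reads over all barcodes, and reads and UMIs came from the same droplets. HTO_B contributed 604589 UMIs and 1232293 reads in its own members. The median member had 501 UMIs and 872 reads in total, unmatched sequences included. For members of the other hashtags the medians ran from 887.5 to 1766.5 UMIs and from 1743 to 5984.5 reads.

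HTO_B was the weakest of the 8 hashtags in its own members. The lowest member had 108 UMIs, the median member 338 and the highest 1816. The middle of the distribution was broad, with 233 UMIs at the 25th percentile and 532 at the 75th. Its 5th and 95th percentiles were 142.8 and 944.2 UMIs. In reads the lowest, median and highest values were 185, 617 and 8764, and the quartiles were 401 and 1018. The exact order-statistic 95% interval of the median was 328 to 358 UMIs and 588 to 646 reads. The label of weak staining therefore fits the values by which these cells were grouped.

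The next weakest hashtag was HTO_H, with a median of 719.5 UMIs and 1466.5 reads in its members. The other 6 medians lay between 1193 UMIs for HTO_E and 1554.5 for HTO_G, and between 3258 and 5638.5 reads for the same hashtags. A random HTO_B member had more UMIs than a random HTO_H member in 22.7% of pairs, and more than a random HTO_G member in 5.40% of pairs. These shares were 23.1% and 5.52% in reads, so the order was nearly the same in both counts. Of the HTO_B members, 159 (10.9%) lay above the median of HTO_H and 8 (0.549%) above that of HTO_G. Conversely, 134 of the HTO_H members (14.5%) lay below the HTO_B median, and so did 77 of the HTO_G members (4.54%).

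**Figure D1:**
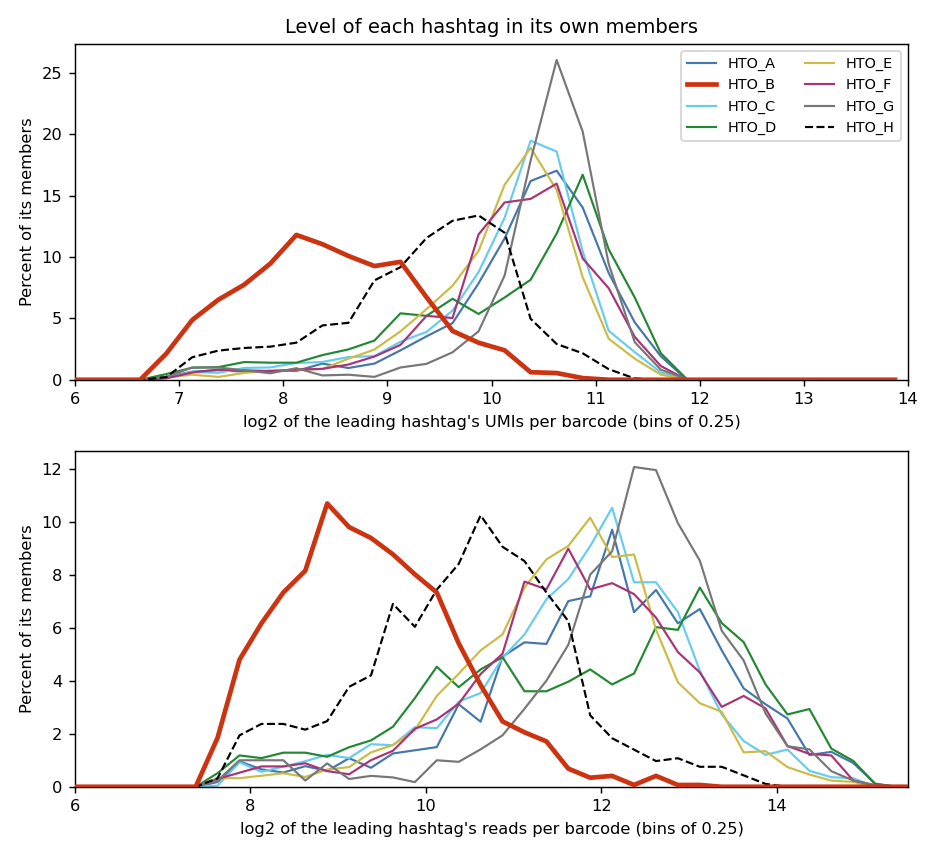
Distribution of the leading hashtag in its own members, in UMIs (top) and reads (bottom), as the percent of members in bins of 0.25 on the log2 axis, 1 line for each of the 8 hashtags. HTO_B (thick red) peaks furthest to the left, with a median of 338 UMIs, and HTO_H (dashed black) lies next at 719.5. The lower ends of all 8 lines fall at the same place.

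HTO_B had a single broad peak. On a log2 scale in steps of 0.5, the number of members rose from 31 below 128 UMIs to 333 between 256 and 362 UMIs, and then fell in each step to 10 above 1448 UMIs. Counting error alone at the median would give an SD of 18.4 UMIs, or 5.44% of the median, whereas the coefficient of variation over the members was 0.623. Nearly all of the spread was thus larger than the counting error of single cells.

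How wide HTO_B looked depended on the measure. The 75th percentile was 2.28 times the 25th in UMIs. Only HTO_D was wider by that measure (2.68), and HTO_G was the narrowest (1.44). The SD of log2(UMIs + 1) was 0.82, inside the range of 0.73 to 1.04 of the other hashtags. The coefficient of variation, which weights high values, was above the 0.352 to 0.544 of the other 7. In reads the 75th percentile was 2.54 times the 25th against 2.32 to 6.18 elsewhere, and the SD of log2(reads + 1) was 0.96 against 1.16 to 1.70, the lowest of the 8. The coefficient of variation in reads was 0.914, inside the 0.690 to 0.974 of the others. Over all members the measures thus gave HTO_B no single place in the order of widths, in UMIs or in reads.

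On the log2 scale the asymmetry of HTO_B had the opposite sign to that of the other hashtags. The skewness of log2(UMIs + 1) was 0.22 for HTO_B, and -0.63 for HTO_H, -0.98 for HTO_D and down to -2.42 for HTO_G. In reads it was 0.54 for HTO_B and -0.06 to -1.40 for the other 7. The quartile (Bowley) skewness of log2(UMIs + 1), which ignores the tails, was also the highest for HTO_B, at 0.10 against -0.32 to -0.05. On the linear scale most hashtags had a positive skewness. It was 1.69 in UMIs and 3.88 in reads for HTO_B, and -0.27 (HTO_G) to 1.49 in UMIs and 1.47 to 3.02 in reads for the others. When the cells were chosen by HTODemux, the classifier named in the study's methods, the log2 skewness of HTO_B was -0.02 and that of the next hashtag, HTO_D, was -0.98.

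The upper tail was long relative to the median. In UMIs 196 members (13.5%, exact binomial 95% interval 11.7% to 15.3%) had more than 2 times the median, against 0.295% to 6.37% for the other hashtags. More than 4 times the median was found in 15 members (1.03%, 0.577% to 1.69%). HTO_A, HTO_C, HTO_E and HTO_F each had 1 such member, and HTO_D, HTO_G and HTO_H had 0, for which a limit of 3 counts allows up to 0.155%, 0.177% and 0.324%. The ratio of the 95th percentile to the median was 2.79 for HTO_B and 1.52 to 2.09 for the other 7. In reads this feature was not found. There 52 HTO_B members (3.57%, 2.68% to 4.65%) exceeded 4 times the median, within the 0.943% to 6.91% of the other hashtags.

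The lower tail was short. 25% of the median is 84.5 UMIs, and 0 of the 1457 members lay below it. A limit of 3 counts allows a share of up to 0.206%, and the exact binomial interval reaches 0.253%. The rule itself bears on this 0, since 3 times the second hashtag was a median of 90 UMIs in HTO_B members. For the other hashtags 2.74% to 8.30% of members lay below 25% of their median. Among cells chosen by HTODemux instead, 0.994% of HTO_B cells lay below 25% of their median. This contrast is bounded by where the data begin. The lowest member of any hashtag had between 108 and 122 UMIs and between 185 and 202 reads of its leading hashtag, although the medians of the hashtags spanned 338 to 1554.5 UMIs. That edge is 32.0% of the median for HTO_B, 16.7% for HTO_H and 7.33% to 9.39% for the other 6. How the droplet barcodes were selected before deposit is not given in the sources used here, and whether weaker HTO_B cells were left out at that step was not tested.

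HTO_B had the most members near that edge. Of them, 155 (10.6%, 9.10% to 12.3%) had fewer than 500 reads in total, against 1.44% to 3.92% for the other hashtags. To compare shapes above a common edge, members under 32.0% of their own median were left out for every hashtag, a comparison chosen after seeing the data. Between 74 and 226 members of each other hashtag were removed. For HTO_B 2 members were removed, which lay at the edge of 108 UMIs itself and fell out by rounding. The log2 skewness in UMIs was then 0.22 for HTO_B and -0.72 to -0.22 for the others, so HTO_B stayed the highest with a smaller gap, while HTO_D moved from -0.98 to -0.49. The SD of log2(UMIs + 1) was 0.81 for HTO_B and 0.43 to 0.72 for the others, and the coefficient of variation 0.622 and 0.281 to 0.472. The ratio of the 75th to the 25th percentile was 2.27 for HTO_B and 1.39 to 2.17 for the others. HTO_B was then the widest hashtag in UMIs by each of these measures. In reads, with the edge at 30.0% of the median, the same ratio was 2.54 for HTO_B and 2.08 to 3.56 for the others. The SD of log2(reads + 1) was 0.96 against 0.79 to 1.17, so HTO_B was no longer the narrowest hashtag in reads. There the skewness was 0.54 for HTO_B and -0.11 to 0.44 for the others. The positive skewness was then shared by 6 of the 7 other hashtags, HTO_D being the exception.

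The distance of HTO_B from the brighter hashtags varied along the distribution. The median of the 7 other hashtags was 3.81 times that of HTO_B in UMIs, taking the middle one of the 7 ratios. At the 5th percentile this ratio was 2.49, at the 25th 3.89, at the 75th 3.13 and at the 95th 2.5. The middle ratio was thus smaller at both ends. At the lower end all hashtags share the edge of 108 to 122 UMIs described above, which bounds the ratio there. In reads the middle ratio was 2.62 at the 5th percentile, 6.08 at the median and 6.92 at the 95th. The single hashtags differed in this: from the median to the 95th percentile HTO_A, HTO_D and HTO_F moved further from HTO_B in reads, and HTO_C, HTO_E, HTO_G and HTO_H came nearer. HTO_H was nearest to HTO_B throughout, at 1.31 to 2.13 times in UMIs and 1.30 to 2.38 times in reads. HTO_G was farthest at the median, at 4.60 times in UMIs and 9.14 times in reads.

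**Figure D2:**
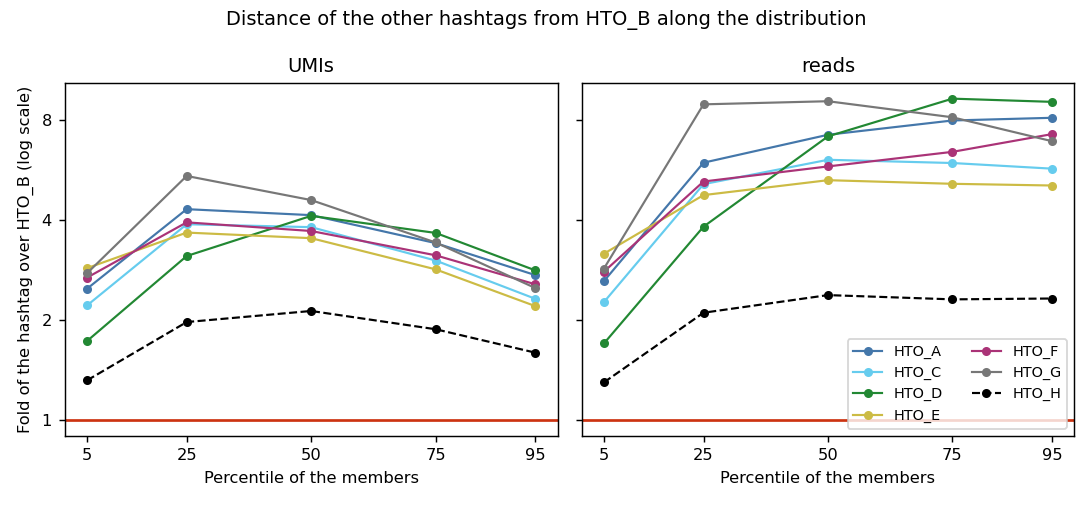
Ratio of each other hashtag to HTO_B (log axis) at the 5th, 25th, 50th, 75th and 95th percentiles of their own members, in UMIs (left) and reads (right). The red line at 1 is HTO_B itself. In UMIs the ratios are highest at the 25th or 50th percentile and fall towards the 95th, and in reads 3 of the 7 rise from the median to the 95th percentile while 4 fall.

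The difference between both counts lay in the number of reads per UMI. HTO_B had 2.04 reads per UMI in its members, the lowest of the 8, and the others had 2.54 (HTO_H) to 4.66 (HTO_D). This number rose with the level of the leading hashtag for every hashtag. In members with 100 to under 200 UMIs of the leading hashtag, HTO_B had 1.72 reads per UMI (254 members), above the 1.66 to 1.69 of the others. From 200 to under 400 UMIs it had 1.78 (615 members), inside their range of 1.70 to 1.79. From 400 to under 800 UMIs it was 1.97 (464 members) against 1.98 to 2.06, and from 800 to under 1600 UMIs it was 2.5 (118 members) against 2.58 to 3.12. Within windows HTO_B therefore differed much less from the other hashtags than over all members. From pooled reads and UMIs it was the highest of the 8 in the lowest window and the lowest in the upper 2. Levels were not matched inside a window, and HTO_B thinned out along the window from 800 UMIs. There it had 44 members at log2 values of 9.75 to 10 and 9 at 10.25 to 10.5. HTO_H had 124 and 46 in these bins, and HTO_A 131 and 270. The part of this in the lower values of HTO_B was not tested. The median of reads per UMI over single members was 1.74 for HTO_B in the lowest window, below the 1.77 of HTO_F. Only 6 HTO_B members reached 1600 UMIs, too few for that window. Reads and UMIs of HTO_B were described by a slope of 1.17 for log2 reads on log2 UMIs, against 1.31 for HTO_H and 1.55 to 1.62 for the other 6.

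Free HTO_B in other cells was at an ordinary level. In the 12554 members of the other 7 hashtags, HTO_B had a median of 20 UMIs and 33 reads, and the other hashtags had 8 (HTO_H) to 30 UMIs (HTO_D) in the corresponding cells. The median in its own members was thus 16.9 times the median elsewhere for HTO_B. The corresponding ratios were 46.4 for HTO_D, 53.7 for HTO_C and up to 125.4 for HTO_F. At the 95th percentile HTO_B elsewhere had 40 UMIs, well below the 108 UMIs of the lowest HTO_B member.

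At the 99th percentile HTO_B reached 191 UMIs in members of other hashtags, where the other 7 hashtags reached 24 to 75. At least 100 UMIs of HTO_B were present in 186 of these 12554 members (1.48%, exact binomial 95% interval 1.28% to 1.71%). The other hashtags had that many in 0.0974% (HTO_G) to 0.364% (HTO_D) of the members of hashtags other than themselves. In the 186 barcodes the median was 257.5 UMIs for HTO_B and 1549.5 for the leading hashtag. HTODemux classified 0 of the 186 as singlets, and likewise 0 of the members in which another non-leading hashtag reached 100 UMIs. It calls hashtags from these same counts, so this is not separate evidence on what the barcodes hold. They were led by every other hashtag, from 3 of the 926 HTO_H members (0.324%) to 37 of the 1689 HTO_F members (2.19%). By the rule, a weak hashtag can stand beside a bright one and leave the ratio above 3. The part of both levels in these counts was not tested. A further 139 barcodes with at least 100 UMIs of HTO_B were led by another hashtag and failed the ratio. That number lay inside the range of the other hashtags, 99 (HTO_G) to 211 (HTO_E).

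**Figure D3:**
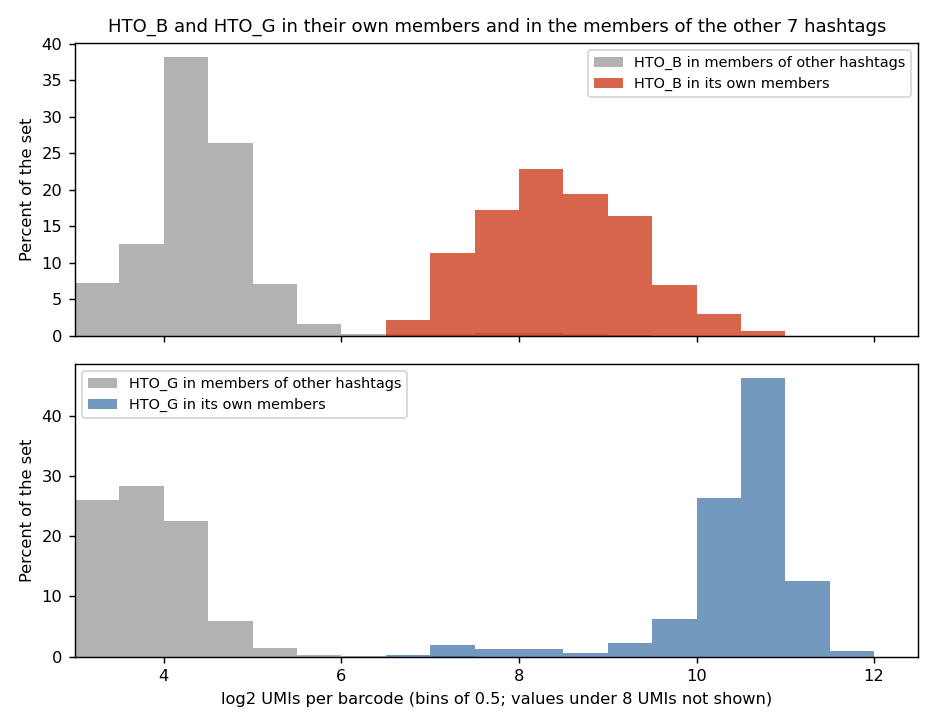
HTO_B (top) and the brightest hashtag, HTO_G (bottom), in their own members (coloured) and in members of the other 7 hashtags (grey), as the percent of each set in bins of 0.5 on the log2 axis. The 2 sets of HTO_B lie closer together, with medians of 338 and 20 UMIs, than those of HTO_G, with 1554.5 and 13.

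Barcodes led by HTO_B passed the ratio more often than those of any other hashtag. Of 1515 barcodes led by HTO_B, 1457 were members (96.2%, 95.1% to 97.1%). HTO_H followed with 94.2% (92.6% to 95.6%, overlapping the interval of HTO_B), and the other 6 hashtags had 88.2% to 91.8%. In the 58 that failed, HTO_B had a median of 299.5 UMIs and the second hashtag 187, and HTO_D was second in 27 of them. A barcode with HTO_B beside a higher hashtag is led by the latter and is not among the 1515. The 139 barcodes given above, with at least 100 UMIs of HTO_B, were such cases that failed the ratio. The share kept thus covers led barcodes only and does not rank how clean the labels were. The part of the hashtag's level in it was not tested. The members nearest to the limit, with a ratio of 3 to 3.5, were 14 barcodes with 116 to 357 UMIs of HTO_B. Just outside it, with a ratio of 2.5 to 3, were 12 barcodes with 107 to 1434 UMIs.

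Within members the lead over the second hashtag was also the smallest for HTO_B. The median ratio was 11.2, against 23.0 for HTO_H and 36.9 to 48.0 for the other 6. HTO_B made up a median of 74.3% of the hashtag UMIs of its members, and the leading hashtag 84.5% for HTO_H and 90.4% to 92.2% for the rest. The second hashtag was HTO_D, alone or tied, in 978 HTO_B members (67.1%) and HTO_C in 407 (27.9%). These were the hashtags with the highest free levels, and HTO_H, with the lowest, was second in 0 of 1457.

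The other 7 hashtags in HTO_B members were close to their usual background. HTO_D had a median of 28 UMIs in HTO_B members and 30 in the members of the remaining 6 hashtags. HTO_C, HTO_F and HTO_H had the same median in both sets (24, 10 and 8 UMIs), and HTO_A, HTO_E and HTO_G were 1 UMI lower in HTO_B members. The ratios of means were below 1 for all 7, from 0.872 for HTO_H to 0.964 for HTO_G. The rule limits this comparison, since a weak leading hashtag leaves less room for the second. Over the 6 hashtags that both kinds of members lack as leaders, the summed median in HTO_B members was 0.884 (against HTO_G members) to 0.982 times (against HTO_H members) that of the other hashtag's members.

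Weak and strong HTO_B members had nearly the same background. Up to the 5th percentile of HTO_B (73 members, median 129 UMIs) the other 7 hashtags summed to a median of 113 UMIs. Above the 95th percentile (73 members, median 1078 UMIs) the sum was 127 UMIs. The background thus hardly moved over the whole range of HTO_B. Spearman's rho between HTO_B and the summed background was 0.18 over the 1457 members, which share 1 library. The rule sets HTO_B against the second hashtag and so bears on this correlation, which was 0.155 at a ratio of 2, 0.27 at a ratio of 5 and 0.111 among HTODemux singlets. When the members were cut by HTO_B into 4 groups of 364 or 365, it was 0.05, 0.05, 0.0029 and -0.03 within them, where the range of HTO_B is cut short.

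The background itself reached well to both sides of its main peak. Most HTO_B members had a sum of 90 to 150 UMIs for the other 7 hashtags. Smaller groups lay near 60 and near 220 UMIs, with few members between 160 and 170. The group near 60 rests on 1 lower bin, with 35 members from 60 to 70 UMIs, 22 from 70 to 80 and 51 from 80 to 90. Whether these groups are separate peaks was not tested. Bands were set after seeing this, with limits at 84 and 174 UMIs around the median of 120. The low band held 123 members (8.44%) with a median sum of 63 UMIs, the middle band 1191 (81.7%) with 119, and the high band 143 (9.81%) with 222. The bands were cut on the sum of the 7 hashtags, so a shift of that sum between bands is built in. The single hashtags' medians in the low band were 0.50 to 0.57 times those in the middle band, and in the high band 1.70 to 1.94 times.

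HTO_B followed these bands only in part. Its median was 267 UMIs in the low band, 348 in the middle band and 387 in the high band, or 0.767 and 1.11 times the middle band. The other hashtags had 0.520 to 0.652 times the middle band's level in their own low bands, and up to 1.10 times (HTO_F) in their high bands. The step of HTO_B was thus smaller than that of the others below the middle, and 1.11 lay just past their range above it. A barcode with more background also needs more HTO_B to meet the ratio, and its 5th percentile was 184.9 UMIs in the high band against 138.5 in the others. Of the 123 members in the low band, 4 were the smaller barcode of a pair that differed at 1 base, out of 5 such members in all.

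**Figure D4:**
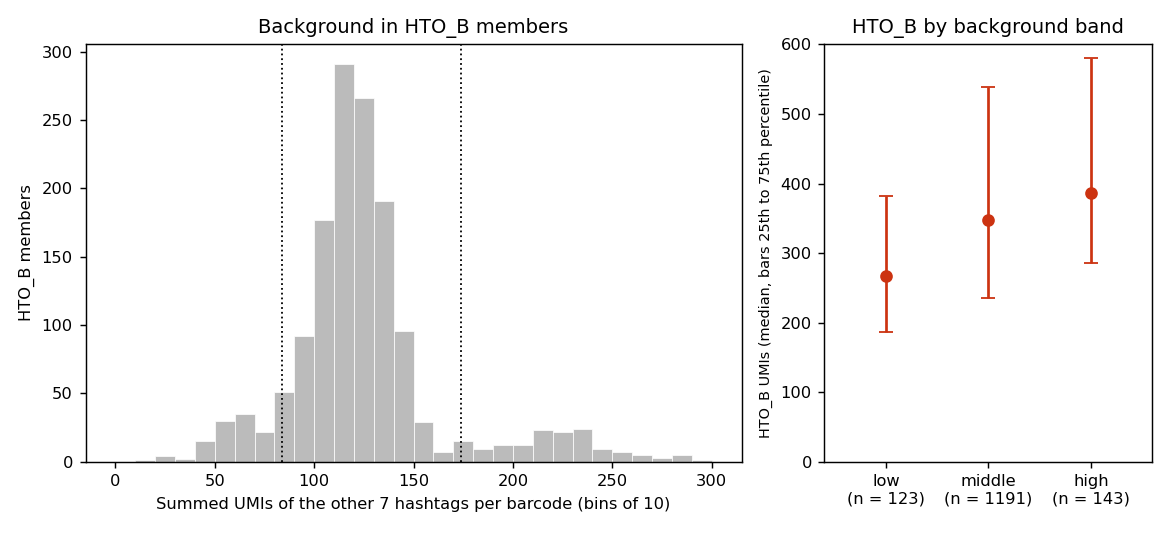
Left, number of HTO_B members by the summed UMIs of the other 7 hashtags in bins of 10, with dotted lines at the band limits of 84 and 174 UMIs. Right, HTO_B UMIs in each band as the median (point) with the 25th to 75th percentile (bar). The background has a main peak and smaller groups near 60 and 220 UMIs, which were not tested as separate peaks. The HTO_B median rises from 267 to 348 and 387 UMIs.

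Sequences that matched no hashtag were a readout that the rule did not use. They made up 5.52% of all UMIs in HTO_B members (45948 of 832707, exact binomial 95% interval 5.47% to 5.57%), against 3.09% (HTO_E) to 5.21% (HTO_D) elsewhere. That interval takes pooled UMIs as independent draws, although UMIs of the same cell are not. It leaves out the spread between cells and does not measure the difference from HTO_D. The number per barcode was nevertheless the lowest, with a median of 29 UMIs (25th to 75th percentile 23 to 37) beside 30 for HTO_H and 39 to 66 for the other 6. Within windows of the leading hashtag's level the order turned. In members with 100 to under 200 UMIs HTO_B had a median of 23.5 unmatched UMIs (254 members), HTO_H had 17 (57 members) and the other 6 had 6 to 8. From 200 to under 400 UMIs the values were 27 for HTO_B, 21 for HTO_H and 7 to 16 for the rest. The gap closed above that, with 34 against 18 to 32 from 400 to under 800 UMIs, and 51 against 38 to 56 from 800 to under 1600.

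Members of the bright hashtags were few in the lowest window, with 26 to 70 for each of the 6. From 100 to under 200 UMIs, 10.4% to 21.4% of the members of HTO_A, HTO_C, HTO_D, HTO_E, HTO_F and HTO_G were the smaller barcode of a pair differing at 1 base, compared with 2 of 254 HTO_B members (0.787%) and 0 of 57 HTO_H members. Their summed background was 91 to 114 UMIs, beside 115 for HTO_B and 126 for HTO_H. The part of these barcodes in the difference of unmatched UMIs was not tested.

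Along the HTO_B distribution the unmatched count rose less than HTO_B. It was a median of 23 UMIs up to the 5th percentile, 27 between the 25th and 50th, and 57 above the 95th. Spearman's rho with HTO_B was 0.58 over the members, and 0.75 to 0.96 for the other hashtags and their members. Within the 4 groups of members cut by HTO_B it was 0.08, 0.07, 0.16 and 0.57, from the weakest to the strongest. The 15 members above 4 times the median had 1356 to 1816 UMIs of HTO_B and a median of 6060 reads. They had 97 unmatched UMIs and 3.72 reads per UMI, while their background of 127 UMIs was that of other members. Droplets with more than 1 HTO_B cell cannot be seen by hashtags and remain among the members.

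**Figure D5:**
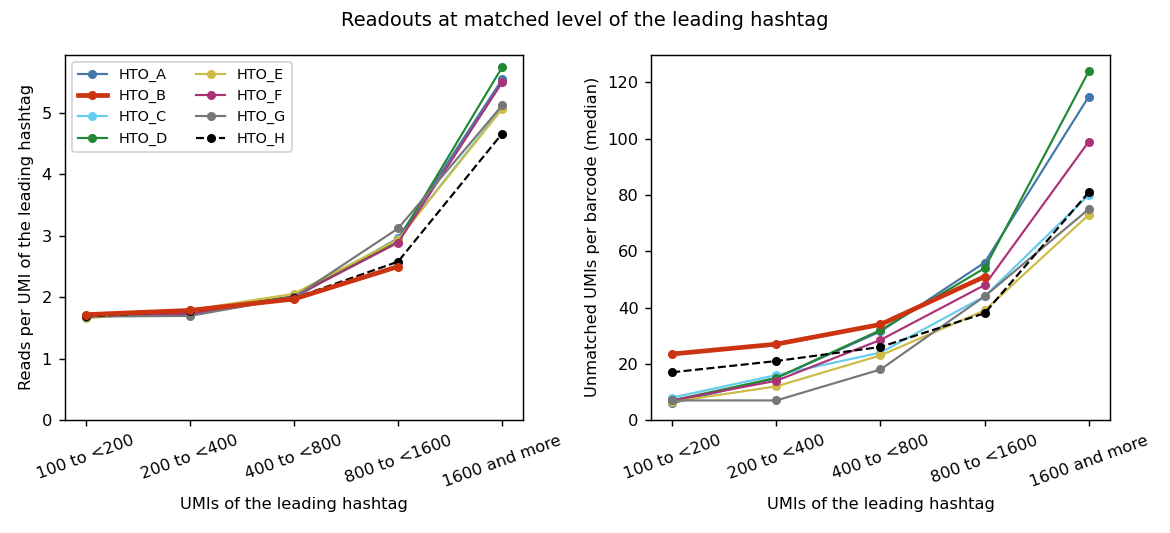
Reads per UMI of the leading hashtag (left) and the median of unmatched UMIs per barcode (right) in windows of the leading hashtag's UMIs, for members of each hashtag and windows with at least 20 members. HTO_B (thick red) follows the others in reads per UMI below 800 UMIs, and lies above them in unmatched UMIs below 800 UMIs.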

How the data were processed

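Cells of 8 PC9 populations were hashed, pooled and run once on a Chromium instrument, and an mRNA and an HTO library were made. The deposited values are raw counts per droplet barcode and hashtag, which the authors obtained with CITE-seq-Count and did not normalize. The read matrix, filed under the mRNA library, keeps PCR duplicates, and the UMI matrix has them collapsed. Version, mismatches, UMI merging and the choice of barcodes are not given in the sources used here. Cell Ranger 3.0.2 is named in the submitters' processing notes. Gene counts were not analysed here, so the study's filters on genes and RNA molecules were not applied.

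The unmatched row was left out of the rule. All 8 hashtags are reported. Shares have exact binomial (Clopper-Pearson) and medians order-statistic intervals at 95% (scipy 1.17.1, numpy 2.4.6, Python 3.11.15). PCR copies are not independent molecules. Shapes were computed on log2(count + 1), and the code was tested on simulated barcodes. With a single library the cells have no replicates, and no p-value was computed. Doublets were treated by the ratio alone. The members and measures were chosen with earlier results of these data known. Alternatives were other ratios (2 and 5), at least 50 UMIs, the rule on reads, HTODemux (Seurat 5.3.0, R 4.3.3, positive quantile 0.99, seed 42), removal of the smaller of barcodes 1 base apart, and subtraction of each hashtag's median elsewhere.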

Additional observations from a re-analysis of the deposited data

How the results depend on the processing

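HTO_B kept the lowest median UMIs and the highest log2 skewness of the 8 hashtags under all 7 other choices of members, the middle background band included. Values were taken as moved when they left their 95% interval or, without one, changed by over 10%. The number of members was the exception and was given a wider limit. At a ratio of 5 it was 1322, below its exact Poisson 95% interval of 1383 to 1534, and was still taken as not moved. Of 163 values under alternatives, 125 did not move. The limit of 50 UMIs changed 0 values, since no member lay below it.

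The median was 368 UMIs and 668.5 reads at a ratio of 5, and 318 UMIs and 584 reads after subtracting the background, both by construction. The share of HTO_B-led barcodes kept was 98.0% at a ratio of 2 and 87.3% at 5, also by construction. The 75th percentile was 2.54 times the 25th in reads. The log2 skewness was 0.24 at a ratio of 5, 0.24 with the rule on reads, 0.14 with background subtracted, and 0.54 in reads. It turned to -0.024 for HTODemux singlets, and the cause was not tested. It was 1.69 on the linear scale and 0.10 from quartiles. Members above 4 times the median were 3.57% in reads, and those above 2 times 13.5%. The fold of the other hashtags over HTO_B was 3.19 from means, 2.49 at the 5th percentile, 3.13 at the 75th and 2.5 at the 95th. Unmatched sequences had a median of 39 in reads. The correlation with background was 0.155 at a ratio of 2, 0.27 at 5 and 0.111 for HTODemux singlets. In 4 groups of members by HTO_B level it was 0.0476, 0.0517, 0.0029 and -0.028.

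The common lower edge and the background bands were chosen after seeing the data. Above the common edge the log2 skewness of HTO_B exceeded that of the next hashtag by 0.44 in UMIs and 0.094 in reads. Cells with fewer than 108 UMIs of HTO_B had no member and cannot be described. No paired analysis was possible because there was 1 pooled run with no replicate numbers. Differences between hashtags carry no error beyond sampling within that run.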

Other observations

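Low and high background bands were also cut for members of the other hashtags. With limits at the same multiples of each hashtag's own median background, the low band held 8.44% (HTO_B) to 14.8% (HTO_G) of members and the high band 8.21% (HTO_H) to 11.7% (HTO_G). The limits are fixed multiples, so that any spread puts members in each band, and separate peaks were looked for in HTO_B members alone. The low band had 0.457 (HTO_A) to 0.529 (HTO_B) times the background of the middle band, and the high band 1.82 (HTO_H) to 2.02 (HTO_F) times. The unmatched UMIs of HTO_B members followed the bands as well, with medians of 17, 30 and 35.

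HTO_H, the next weakest hashtag, lay next to HTO_B in several measures. Its members had the second highest unmatched count in the windows of 100 to under 200 and 200 to under 400 UMIs of the leading hashtag. The 2 hashtags also had the fewest members that were the smaller barcode of a pair differing at 1 base. These were 1 of 926 members for HTO_H and 5 of 1457 for HTO_B. The others had 11 (of 2153 for HTO_E) to 37 (of 1939 for HTO_D), so the counts are few and the numbers of members differ. From 800 to under 1600 UMIs, HTO_B and HTO_H had 2.5 and 2.58 reads per UMI, and the other 6 hashtags 2.89 to 3.12. Both weak hashtags thinned out along that window, so levels inside it were not matched. From 200 to under 400 UMIs they had 1.78 and 1.77 reads per UMI, inside the 1.70 to 1.79 of the other 6. Neither hashtag was tied to a population, and no cause was tested.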
